A study of Mus musculus with 12 samples.

Results

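Sox1, Sox2, Sox3, Sox9, Pax6, Fabp7, Slc1a3, Msi1 and Prom1 are 9 genes by which neural stem and progenitor cells are commonly recognised, and their transcripts were followed across all arrays. The genes were chosen by name, and every array probe whose RefSeq transcript belongs to them was taken. This gave 13 of the 55681 array probes, for 9 of the 21154 genes with a symbol on the array. Sox1, Pax6, Msi1 and Prom1 had more than 1 probe, and Sox2, Sox3, Sox9, Fabp7 and Slc1a3 had 1 probe each.

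The RNA came from neural progenitor cells (NPCs) of the mouse, which had been made from pluripotent stem cells in culture and were kept in EGF and basic FGF at 10 ng/ml each. In the overexpression experiment, retroviral vectors delivered EGFP (the control), Mkl1 or Srf. In the knockdown experiment, the cells received a hairpin against EGFP (shEGFP, the control) or either of the Actb hairpins shActb_1 and shActb_2, where Actb encodes β-actin. Each of these 6 groups was hybridised to 2 single-colour Agilent arrays. All groups thus carried a retroviral vector, and no untreated cells were among the samples. The labels do not name the NPC line. Per the study's methods, molecular analyses used either NSEB5-2C or N31 cells, and the study's line with a Pax6 transgene is neither of these. N31 carries inducible reprogramming factors that include Sox2, and whether the Sox2 probe reads such a transgene was not determined here.

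Sox1, Sox2 and Sox3 are closely related DNA-binding proteins that keep neural progenitors undifferentiated, and Sox2 is also a pluripotency and reprogramming factor. Sox9 is a transcription factor of neural stem cells and of the glial lineage, and Pax6 is the paired-box factor of cortical radial glia. Radial glia, the stem cells of the developing brain, are marked by Fabp7 (the brain fatty acid binding protein) and by Slc1a3 (the glutamate transporter GLAST), while Msi1 (Musashi) is an RNA-binding protein and Prom1 (prominin, CD133) a membrane protein of neural stem cells. Mkl1 is a cofactor of the transcription factor Srf that monomeric actin holds back, which links β-actin to Srf.

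Of the 9 genes, 6 have promoter windows in the RefSeq-based table (GRCm38.p6), 8 windows in all. Each window was read over the 250 bases before the annotated start and searched on both strands for the CArG box, the motif bound by Srf, and for CCAAT. None of the 8 windows held a CArG box, which 1.47% of all 32851 windows did. CCAAT stood in 6 of the 8 windows and in 33.8% of all windows. The windows of Sox2 (chr3:34649745-34649994, plus strand), Fabp7 (chr10:57784673-57784922, plus strand) and Slc1a3 (chr15:8710808-8711057, minus strand) are printed because these genes were lower both on the arrays labelled Mkl1 and with shActb_1, as described further on. Prom1 was also lower in both, and its 2 windows, with 0 and 1 CCAAT, are not printed. Capitals mark CCAAT, or ATTGG where it lies on the opposite strand. A match in letters is no evidence of binding, and the arrays did not measure it.
Sox2: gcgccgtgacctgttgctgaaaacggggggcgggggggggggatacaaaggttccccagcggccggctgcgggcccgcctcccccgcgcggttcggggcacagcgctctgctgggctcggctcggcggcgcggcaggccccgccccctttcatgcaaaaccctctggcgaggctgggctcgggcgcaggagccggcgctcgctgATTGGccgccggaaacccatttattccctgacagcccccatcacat
Fabp7: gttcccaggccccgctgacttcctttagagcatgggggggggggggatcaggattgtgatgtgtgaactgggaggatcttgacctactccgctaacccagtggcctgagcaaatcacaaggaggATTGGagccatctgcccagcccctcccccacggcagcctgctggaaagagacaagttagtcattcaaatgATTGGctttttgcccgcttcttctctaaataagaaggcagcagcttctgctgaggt
Slc1a3: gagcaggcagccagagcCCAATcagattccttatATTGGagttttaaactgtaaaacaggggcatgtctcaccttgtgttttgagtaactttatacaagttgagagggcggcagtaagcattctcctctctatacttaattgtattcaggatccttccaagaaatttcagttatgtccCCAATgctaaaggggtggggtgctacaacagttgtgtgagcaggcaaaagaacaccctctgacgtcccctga

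Levels are log2 signals relative to the 75th percentile of the same array, so that each value reads the gene against the other transcripts of that array, and levels of different probes are not comparable with each other. That percentile was a signal of 843 to 1150, and 59.3% to 72.5% of probes were well above background on an array. Both ends of the latter range were the shActb_2 duplicates, which were the least alike in this share. In their values the EGFP duplicates were the least alike, with r = 0.993 and 2.74% of probes over 2-fold apart. In the other groups 0.50% to 1.54% were. EGFP is the control of both the Srf and the Mkl1 comparison. The study describes the duplicates of the knockdown arrays as technical, so the tests measure differences against the spread between arrays, and the small number of arrays limits their precision. The Actb probe fell by 0.53 (SE 0.05) with shActb_1 and by 0.65 (SE 0.05) with shActb_2 on the log2 scale. The Mkl1 probes, listed under the current symbol Mrtfa, read 0.20 (SE 0.08) and 0.17 (SE 0.11) above EGFP on the arrays labelled Mkl1 and did not pass the test. Both Srf probes fell on the arrays labelled Srf, by 2.46 (SE 0.06) and 1.40 (SE 0.13), which is against that label. On the same arrays Acta2, Tagln and Cnn1, which are known targets of Srf, rose by 3.37 (SE 0.08), 2.34 (SE 0.22) and 1.14 (SE 0.07), while another, Myl9, changed by 0.26 (SE 0.08, adjusted p = 0.0559) and did not pass. The vectors carried open reading frames only, and where the probes lie relative to them was not determined. These are called the arrays labelled Srf for this reason, and each direction drawn from them carries this limit.

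**Figure D1:**
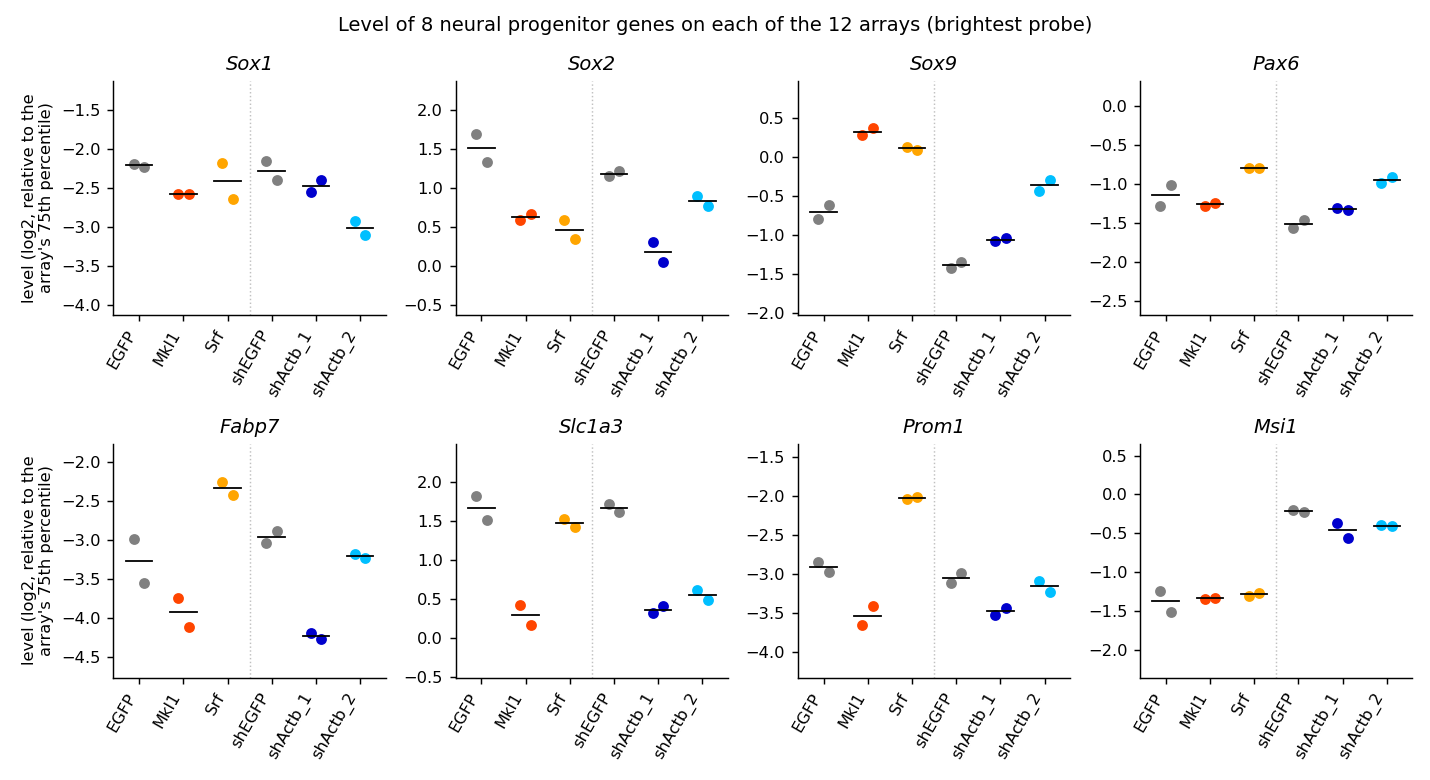
Level of 8 of the 9 genes on each of the 12 arrays (points) with the group mean (black line), as log2 signal of the gene's brightest probe relative to the array's 75th percentile. All panels span the same log2 range, and the dotted line parts the overexpression from the knockdown experiment. Slc1a3 lies near its control only on the arrays labelled Srf, Sox9 lies above its control in every treated group, and Msi1 differs between the experiments more than within them.

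Across the treatments, the genes did not move as 1 set. Slc1a3 and Sox2 each fell in 3 of the 4 comparisons with the matching control, Sox9 rose in 3, Pax6 rose in 2, and Fabp7 and Prom1 fell in 2 and rose in the other where they passed the test. Sox1 fell in 1 comparison by the probe that stands for it and in 2 by its other, about equally bright probe, and Msi1 passed in none. A gene is counted here by its brightest probe, the one with the highest mean log2 level over the 12 arrays, and passes at a Benjamini-Hochberg adjusted p under 0.05 over all probes tested, by limma. Sox3 could not be tested, because its probe was not well above background on any array, so 8 genes entered each count. In bulk RNA, fewer cells of a type and less RNA per cell cannot be told apart.

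On the arrays labelled Srf, 4 of the 8 genes rose against EGFP, where 17.4% of all named genes rose, and 1 fell, where 16.5% of all named genes fell, or 2 fell if Sox1 is read by its other probe. The median log2 change of the 8 genes was 0.22, and that of all named genes was -0.01. On the arrays labelled Mkl1, 4 genes fell (11.3% of all named genes fell) and 1 rose (17.7%), and the median of the 8 genes was -0.49 against 0.02 for all named genes. With shActb_1, 4 genes fell (6.18%) and 0 rose (7.78%), with a median of -0.34 against 0.02. Before adjustment, 1 gene was higher with shActb_1 at p under 0.05 by limma. With shActb_2, 2 genes fell (16.3%) and 2 rose (28.2%), with a median of -0.22 against 0.07. The counts that fell on the arrays labelled Srf, that rose on the Mkl1 arrays and with shActb_1, and that rose or fell with shActb_2 were within 1 gene of what the share of all named genes gives for 8 genes. The Srf and Mkl1 comparisons share the EGFP arrays, and the hairpin comparisons share the shEGFP arrays. The shActb_2 arrays lay on another slide than shEGFP, so slide and hairpin cannot be told apart in any shActb_2 change given here.

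**Figure D2:**
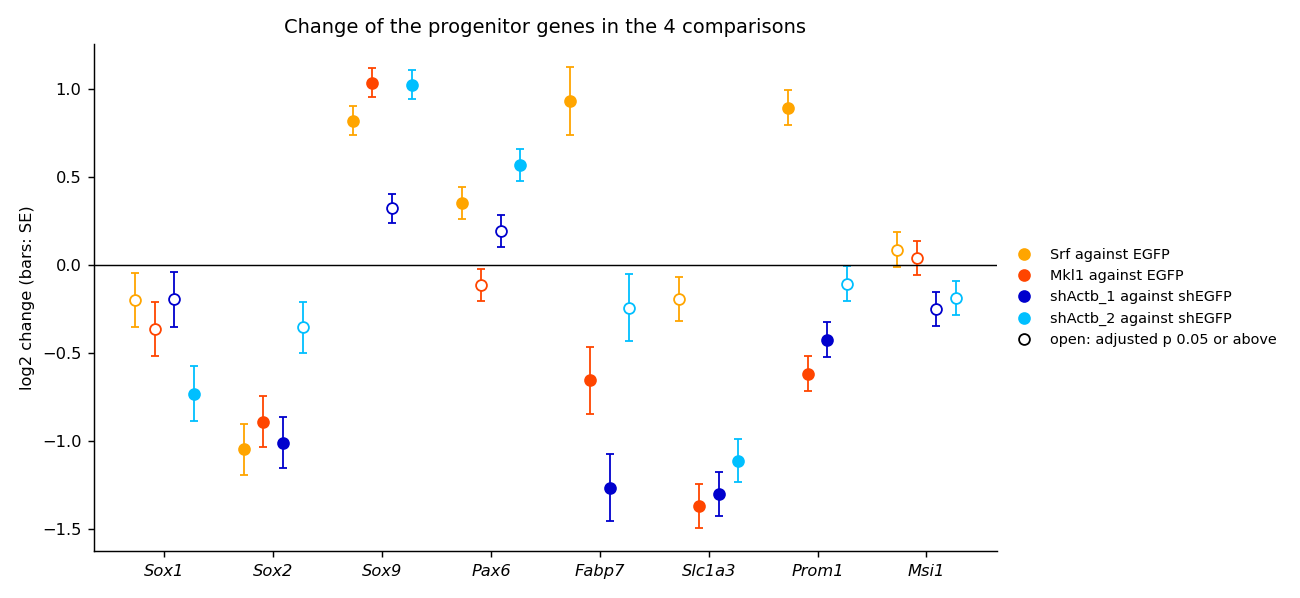
log2 change of 8 genes against the control of the same experiment, with bars of 1 SE from the fit of all 12 arrays. Filled points have an adjusted p under 0.05. Sox2 and Slc1a3 lie below 0 in all 4 comparisons and Sox9 above 0, while Fabp7 and Prom1 lie above 0 on the arrays labelled Srf and below 0 elsewhere.

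Sox2 read 1.70 and 1.34 on the EGFP arrays, 0.58 and 0.67 on the Mkl1 arrays, and 0.59 and 0.35 on the arrays labelled Srf. It read 1.15 and 1.22 with shEGFP, 0.30 and 0.05 with shActb_1, and 0.90 and 0.76 with shActb_2. All treated arrays lay below both control arrays of their experiment. Sox2 fell by 1.05 (SE 0.14, adjusted p = 0.00186) on the arrays labelled Srf, by 0.89 (SE 0.14, adjusted p = 0.00578) on the Mkl1 arrays and by 1.01 (SE 0.14, adjusted p = 0.00584) with shActb_1, changes of 2.07-fold, 1.86-fold and 2.01-fold. In a fit of the compared arrays alone, which has only 4 arrays, the Srf and Mkl1 calls were lost (adjusted p = 0.0589 and 0.0972). With shActb_2 the change was -0.35 (SE 0.14, adjusted p = 0.0873) and did not pass, with a 95% interval from -0.69 to -0.02, though it passed in 6 of 21 alternative fits (adjusted p = 0.0337 to 0.0438). In the order of levels, EGFP was followed by Mkl1 and Srf, which did not differ from each other beyond their spread (difference -0.16, adjusted p = 0.492). In the knockdown experiment shEGFP was followed by shActb_2 and then shActb_1, and the hairpins differed by 0.66 (SE 0.14, adjusted p = 0.0124).

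Sox1 had 2 probes to the same transcript, both well above background on all 12 arrays and almost equally bright. The first, which stands for the gene, had the higher mean log2 level (-2.49 against -2.56), and the second the higher mean signal (182 against 178). The first probe read -2.19 and -2.23 on the EGFP arrays, -2.58 and -2.57 on the Mkl1 arrays, and -2.18 and -2.64 on the arrays labelled Srf. It read -2.16 and -2.40 with shEGFP, -2.55 and -2.40 with shActb_1, and -2.92 and -3.10 with shActb_2. The shActb_2 arrays were the lowest, and the groups labelled Srf and EGFP overlapped. Sox1 fell by 0.73 (SE 0.15, adjusted p = 0.00795) with shActb_2, and its second probe fell by 1.15 (SE 0.23, adjusted p = 0.0058). The fall at the first probe was no longer past the threshold without shActb_2 replicate 2 (adjusted p = 0.0641) or without shEGFP replicate 1 (adjusted p = 0.0598). The probes disagreed on the arrays labelled Srf, where the first changed by -0.20 (SE 0.15, adjusted p = 0.377) and the second fell by 0.90 (SE 0.23, adjusted p = 0.0247). The latter call was lost in 5 of 23 alternative fits, among them those without EGFP replicate 1 (adjusted p = 0.116) and without Srf replicate 2 (0.152). With Mkl1 the probes changed by -0.37 (adjusted p = 0.135) and -0.18 (adjusted p = 0.613), and with shActb_1 by -0.20 (adjusted p = 0.552) and -0.11 (adjusted p = 0.87). None of these 4 values passed.

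Sox3, the remaining gene of this Sox subgroup, gave signals of 4.18 to 7.24 and was not well above background on any of the 12 arrays. Each of the other 8 genes was well above background on all 12 arrays by its brightest probe.

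Sox9 moved in the opposite direction to Sox2. It read -0.80 and -0.62 on the EGFP arrays, 0.28 and 0.37 on the Mkl1 arrays, and 0.12 and 0.09 on the arrays labelled Srf. It read -1.42 and -1.35 with shEGFP, -1.09 and -1.04 with shActb_1, and -0.43 and -0.30 with shActb_2. All treated arrays lay above both controls of their experiment. Sox9 rose by 1.04 (SE 0.08, adjusted p = 0.000416) on the Mkl1 arrays, by 0.82 (SE 0.08, adjusted p = 0.000432) on the arrays labelled Srf and by 1.02 (SE 0.08, adjusted p = 0.000199) with shActb_2, or 2.05-fold, 1.76-fold and 2.03-fold. The Mkl1 call was lost in the fit of the compared arrays alone (adjusted p = 0.0671). With shActb_1 the change was 0.32 (SE 0.08, adjusted p = 0.0518), just outside the threshold, and it passed in 6 of 23 alternative fits (adjusted p = 0.0234 to 0.0463). Both arrays labelled Srf lay below both Mkl1 arrays, by 0.22 on average (95% interval of the difference -0.41 to -0.02), which did not pass after adjustment (adjusted p = 0.0973), and shActb_2 was above shActb_1 by 0.70 (SE 0.08, adjusted p = 0.0012).

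Pax6 had a bright and a dim probe to the same transcript. The bright probe read -1.28 and -1.01 on the EGFP arrays, -1.28 and -1.24 on the Mkl1 arrays, and -0.79 and -0.80 on the arrays labelled Srf. It read -1.57 and -1.47 with shEGFP, -1.31 and -1.33 with shActb_1, and -0.98 and -0.91 with shActb_2. Mkl1 and EGFP overlapped, while the arrays labelled Srf and both hairpins lay above their controls. Pax6 rose by 0.57 (SE 0.09, adjusted p = 0.00254) with shActb_2, a 1.48-fold change. On the arrays labelled Srf it rose by 0.35 (SE 0.09, adjusted p = 0.0265), and this call was lost in 7 of 23 alternative fits, among them the fits without EGFP replicate 1 (adjusted p = 0.0632), without Srf replicate 1 (0.106) and without Srf replicate 2 (0.115). With Mkl1 the change was -0.11 (adjusted p = 0.41) and with shActb_1 0.19 (adjusted p = 0.263), neither past the threshold. The dim probe was well above background on 2 of 12 arrays, both of shActb_2, where it was at least 2.03-fold higher than in shEGFP (adjusted p = 0.04), the bound being set by the lowest signal well above background. That call was lost without shActb_2 replicate 2 (adjusted p = 0.231) or shEGFP replicate 2 (0.208), and also without any 1 array of the EGFP, Mkl1 or Srf groups (0.0523 to 0.06).

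Slc1a3 showed the largest fall among the brightest probes of the 8 genes tested. It read 1.82 and 1.52 on the EGFP arrays, 0.43 and 0.17 on the Mkl1 arrays, and 1.53 and 1.43 on the arrays labelled Srf. It read 1.72 and 1.62 with shEGFP, 0.33 and 0.41 with shActb_1, and 0.63 and 0.49 with shActb_2. The Mkl1 and hairpin arrays stood apart below the controls of their experiment, and the arrays labelled Srf overlapped EGFP. Slc1a3 fell by 1.37 (SE 0.12, adjusted p = 0.000683) on the Mkl1 arrays, by 1.30 (SE 0.12, adjusted p = 0.00114) with shActb_1 and by 1.11 (SE 0.12, adjusted p = 0.000645) with shActb_2, or 2.59-fold, 2.47-fold and 2.16-fold. The fit of the compared arrays alone lost the Mkl1 call (adjusted p = 0.0704) but kept both hairpin calls. On the arrays labelled Srf the change was -0.19 (SE 0.12, adjusted p = 0.294), with a 95% interval from -0.48 to 0.10 that leaves out a 2-fold fall. Both shActb_2 arrays lay above both shActb_1 arrays, but the difference of 0.19 did not pass (95% interval -0.10 to 0.48, adjusted p = 0.28), whereas the arrays labelled Srf were above those labelled Mkl1 by 1.18 (SE 0.12, adjusted p = 0.000507).

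Fabp7 went in opposite directions in the overexpression groups. It read -2.98 and -3.55 on the EGFP arrays, -3.74 and -4.11 on the Mkl1 arrays, and -2.25 and -2.42 on the arrays labelled Srf. It read -3.04 and -2.88 with shEGFP, -4.19 and -4.27 with shActb_1, and -3.17 and -3.23 with shActb_2. The EGFP arrays were the farthest apart of all duplicates of this gene, and they lay between the other overexpression groups. Fabp7 rose by 0.93 (SE 0.19, adjusted p = 0.0112) on the arrays labelled Srf, fell by 0.66 (SE 0.19, adjusted p = 0.0491) on the Mkl1 arrays and fell by 1.27 (SE 0.19, adjusted p = 0.00725) with shActb_1, or 1.91-fold, 1.58-fold and 2.41-fold. With shActb_2 the change was -0.24 (SE 0.19, adjusted p = 0.346). The hairpins differed by 1.02 (SE 0.19, adjusted p = 0.00673), and the arrays labelled Srf stood 1.59 (SE 0.19, adjusted p = 0.000943) above those labelled Mkl1.

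These Fabp7 calls were not equally firm. The fall on the Mkl1 arrays was lost in 17 of 23 alternative fits, with adjusted p from 0.00768 to 0.265 over all of them, and it shrank to -0.37 without EGFP replicate 1 and to -0.23 with the normexp background correction. That correction also brought the change with shActb_1 to -0.67, the difference between the hairpins to 0.47 and the difference between Srf and Mkl1 to 0.87, all 3 still past the threshold. The call on the arrays labelled Srf was lost in 3 of 23 fits, those without Srf replicate 1 (adjusted p = 0.0681), of 1 slide (0.0642) and of the compared arrays alone (0.103), and that with shActb_1 in 2 of 23, without shActb_1 replicate 2 (0.0559) or shEGFP replicate 2 (0.0524).

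Prom1 followed a pattern like that of Fabp7 in the overexpression experiment. Its brighter probe read -2.85 and -2.98 on the EGFP arrays, -3.65 and -3.42 on the Mkl1 arrays, and -2.03 and -2.01 on the arrays labelled Srf. It read -3.12 and -2.99 with shEGFP, -3.53 and -3.43 with shActb_1, and -3.09 and -3.23 with shActb_2. The overexpression groups did not overlap, and shActb_2 overlapped shEGFP. Prom1 rose by 0.89 (SE 0.10, adjusted p = 0.00072) on the arrays labelled Srf and fell by 0.62 (SE 0.10, adjusted p = 0.00572) on the Mkl1 arrays, a difference of 1.51 (SE 0.10, adjusted p = 5.98e-05). With the normexp correction the fall on the Mkl1 arrays was -0.35 and the difference 0.96, both still past the threshold, and the Mkl1 call was lost in the fit of the compared arrays alone (adjusted p = 0.114). It fell by 0.43 (SE 0.10, adjusted p = 0.0388) with shActb_1, a call that was lost in 15 of 23 alternative fits, including the fits without any 1 array of shEGFP or shActb_1 (adjusted p = 0.113 to 0.205), of the arrays labelled Srf (0.0711) or of shActb_2 (0.0583). The replicate number as a block (adjusted p = 0.0531) and the normexp correction (-0.18, adjusted p = 0.17) also ended it. With shActb_2 the change was -0.11 (adjusted p = 0.424). The other Prom1 probe, annotated to another transcript, was well above background on 1 of 12 arrays and was not tested.

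Msi1 did not pass the test in any of the 4 comparisons. Its brighter probe read -1.24 and -1.50 on the EGFP arrays, -1.34 and -1.33 on the Mkl1 arrays, and -1.30 and -1.26 on the arrays labelled Srf. It read -0.19 and -0.23 with shEGFP, -0.37 and -0.55 with shActb_1, and -0.40 and -0.41 with shActb_2. The overexpression groups overlapped EGFP, and the hairpin arrays lay slightly below shEGFP. The changes were 0.09 (95% interval -0.14 to 0.31) on the arrays labelled Srf, 0.04 (-0.19 to 0.26) on the Mkl1 arrays, -0.25 (-0.48 to -0.02) with shActb_1 and -0.19 (-0.42 to 0.04) with shActb_2. The intervals of this brighter probe thus leave out a 2-fold change in either direction in all 4 comparisons. The other Msi1 probe was well above background on 5 of 12 arrays. On the arrays labelled Srf, of which 1 of 2 was well above background, its fitted change of -0.70 (95% interval -1.49 to 0.10) did not pass (adjusted p = 0.179). It was not well above background on the Mkl1 arrays, whose signals were raised as for the dim Pax6 probe. Its mean was then 1.74-fold lower on the Mkl1 arrays than on the EGFP arrays. The fitted change of -0.86 (SE 0.34, 95% interval -1.65 to -0.06) did not pass either (adjusted p = 0.118). Both intervals of this other probe take in a 2-fold fall.

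Whether an effect differed between treatments was tested directly. Between the arrays labelled Srf and those labelled Mkl1, 4 of the 8 genes were higher with Srf (14.4% of all named genes were) and 0 were lower (20%), with 1 lower before adjustment at p under 0.05 by limma. The 4 genes were Fabp7, Slc1a3, Prom1 and Pax6, the last by 0.46 (SE 0.09, adjusted p = 0.00827), a call lost in 3 of 23 alternative fits. The second Sox1 probe was at -0.72 (SE 0.23, adjusted p = 0.0528) and passed as lower in 5 of 23 alternative fits. Sox9 passed as lower in 3 of 23. Between the hairpins, shActb_2 was higher than shActb_1 for 5 genes (20.9% of all named genes) and lower for 1 (12.4%). The 5 were Sox2, Sox9, Fabp7, Pax6 (0.38, adjusted p = 0.0177) and Prom1 (0.32, adjusted p = 0.0447), and the lower gene was Sox1 (-0.53 at the first probe, adjusted p = 0.033, and -1.04 at the second, adjusted p = 0.0116). Of 21 alternative fits, the Prom1 call was lost in 14 (adjusted p up to 0.209), that of the first Sox1 probe in 8 (up to 0.18), those of Sox2 (up to 0.0784) and Pax6 (up to 0.114) in 3 each, and that of the second Sox1 probe in 2 (up to 0.0817), while those of Fabp7 and Sox9 were lost in 0. shActb_2 lay on a slide of its own, so that slide and hairpin cannot be told apart in that comparison, nor in shActb_2 against shEGFP.

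The mean effect of both hairpins was also set against each overexpression effect. None of the 8 genes passed the test of the hairpin effect against the Mkl1 effect, where 1.7% of all named genes were lower and 1.89% higher, and 1 gene was lower and 2 were higher before adjustment at p under 0.05 by limma. The higher were Pax6 (0.49, SE 0.12, adjusted p = 0.0834) and Prom1 (0.35, SE 0.13, adjusted p = 0.207). The lower was Sox9 (-0.36, SE 0.11, adjusted p = 0.136). Of 21 alternative fits, Pax6 passed in 4 and Sox9 in 1. For Slc1a3 the difference was 0.16 (SE 0.17) and for Sox2 0.21 (SE 0.19). Against the Srf effect, 3 genes were lower with the hairpins (10.6% of all named genes were) and 0 were higher (14.8%). Before adjustment at p under 0.05 by limma, 4 were lower, with Msi1 added (-0.31, adjusted p = 0.149), and 0 were higher. The 3 genes that passed were Fabp7 (-1.69, SE 0.26, adjusted p = 0.00483), Prom1 (-1.16, SE 0.13, adjusted p = 0.00164) and Slc1a3 (-1.01, SE 0.17, adjusted p = 0.00658).

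The control groups of the experiments were not interchangeable. Between shEGFP and EGFP, 1 of the 8 genes was higher (14% of all named genes were) and 2 were lower (22.8%). Msi1 was higher with shEGFP by 1.16 (SE 0.10, adjusted p = 0.000411), and Sox9 and Pax6 differed by -0.68 (adjusted p = 0.00146) and -0.37 (adjusted p = 0.0185). The vector, the experiment and the slide differ together between these groups and cannot be told apart, and levels were therefore compared only within an experiment. This does not remove the slide from the knockdown experiment, where shActb_2 and shEGFP lay on different slides.

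Among 27 other neural progenitor and radial-glia genes, all on the array, 20 were well above background on all 12 arrays, and 21 or 22 were tested in a comparison. 8 of them rose and 2 fell on the arrays labelled Srf, on the Mkl1 arrays 6 rose and 7 fell, with shActb_1 2 rose and 5 fell, and with shActb_2 5 rose and 4 fell. Of all named genes, 17.4% rose and 16.5% fell on the arrays labelled Srf, and 17.7% and 11.3% on the Mkl1 arrays. With shActb_1 7.78% rose and 6.18% fell, and with shActb_2 28.2% and 16.3%. The list's median changes were 0.09, -0.11, -0.14 and -0.05. Dach1, a nuclear factor of progenitors, rose by 1.24 (SE 0.17, adjusted p = 0.00184) on the arrays labelled Srf and fell by 1.20 (SE 0.17, adjusted p = 0.00349) on the Mkl1 arrays and by 1.80 (SE 0.17, adjusted p = 0.0011) with shActb_1. With shActb_2 its change was -0.14 (SE 0.17, adjusted p = 0.538), and the hairpins differed by 1.66 (SE 0.17, adjusted p = 0.000743). The matrix protein gene Tnc rose by 2.83 (SE 0.39) on the arrays labelled Srf, as did the receptor gene Egfr by 1.15 (SE 0.12) and the Notch target Hes1 by 1.11 (SE 0.10). On the Mkl1 arrays Tnc rose by 1.41 (SE 0.39), Nes (nestin, an intermediate filament of neural stem cells) by 1.16 (SE 0.15) and Hopx by 1.12 (SE 0.07). Tnc was well above background on 1 of 2 EGFP arrays, so the size of its changes rests on a control that was partly not measured. Nfib, a transcription factor of glial differentiation, was lower and Hmga2, a chromatin protein of young neural stem cells, higher in all 4 comparisons. Nfib and Hmga2 were singled out after their values were seen, and their changes lay between -0.80 and -0.49 and between 0.25 and 0.72.

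**Figure D3:**
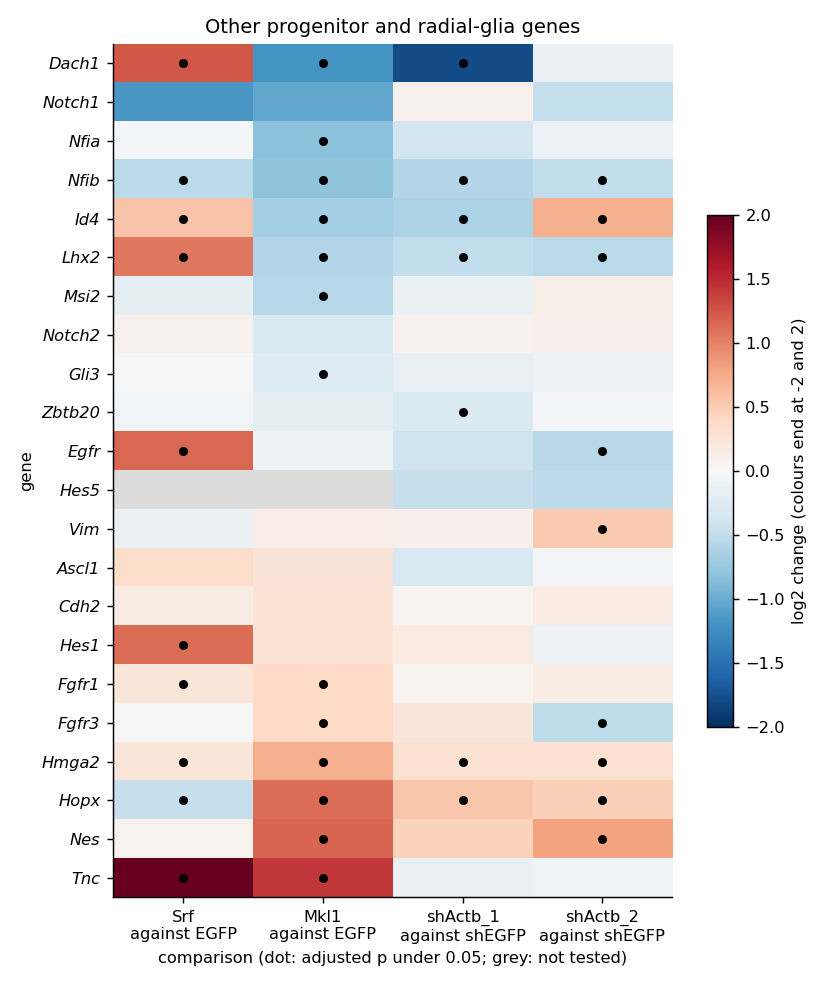
log2 change of 22 other progenitor and radial-glia genes in the 4 comparisons, 1 row per gene ordered by the change on the Mkl1 arrays. Red is higher and blue lower than the control, a dot marks an adjusted p under 0.05, grey was not tested, and the colours end at 2 on either side of 0. Dach1, Id4 and Lhx2 are red on the arrays labelled Srf and blue on the Mkl1 arrays.

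Relatives of the 9 genes were read in the same comparisons, and their counts stand beside the shares of all named genes given above. Of 15 other Sox genes, 10 were tested, and 4 fell and 2 rose on the arrays labelled Srf, 2 fell and 1 rose on the Mkl1 arrays, 1 fell and 0 rose with shActb_1, and 0 fell and 2 rose with shActb_2. Sox7 rose by 1.31 (SE 0.25, adjusted p = 0.00512) with shActb_2. Sox6, Sox8, Sox17, Sox18 and Sox30 were not well above background on any array. Of 12 relatives of Pax6, Fabp7, Slc1a3 and Prom1, 8 or 9 were tested, and 3, 0, 1 and 2 of them passed in the Srf, Mkl1, shActb_1 and shActb_2 comparisons. The neutral amino acid transporter Slc1a5 fell by 1.01 (SE 0.14, adjusted p = 0.00221) on the arrays labelled Srf, where Slc1a3 did not pass.

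Markers of other cell types moved in the same comparisons. Their counts, too, stand beside the shares of all named genes given above, and no list was tested as a whole. Of 10 smooth muscle and mesenchyme markers, all well above background on every array, 3, 4, 4 and 4 rose and 4, 4, 3 and 5 fell in the Srf, Mkl1, shActb_1 and shActb_2 comparisons. Acta2, the smooth muscle actin, rose by 3.37, 6.93, 4.42 and 5.04 (log2 changes), as did Tagln by 2.34, 2.32, 2.20 and 2.53, while the collagen gene Col1a2 fell by 1.096 on the arrays labelled Srf, 0.45 on the Mkl1 arrays and 0.65 with shActb_2, and its change of -0.25 with shActb_1 did not pass. The summed signal of this list, relative to the 75th percentile, was 189.9 to 195 in EGFP, 279.6 to 312 in Mkl1, 144 to 145 in Srf, 159 to 169.7 in shEGFP, 246 to 262 in shActb_1 and 316 to 325 in shActb_2. Of 10 neuron markers, 9 were tested in each comparison, and 3, 1, 2 and 1 rose and 2, 3, 2 and 3 fell, with Nefl higher by 1.41, 2.84, 1.28 and 2.44 while Stmn2 fell by 3.88, 1.46, 1.41 and 1.29. Their summed signal ranged from 13.2 to 19.3 over all arrays. Of 7 astrocyte markers 5 were tested, and 1, 0, 0 and 0 rose and 2, 1, 1 and 3 fell. Their summed signal was 70.0 to 86.4 in EGFP, 54.9 to 59.9 in Mkl1, 38.0 to 40.9 in Srf, 54.7 to 55.0 in shEGFP, 40.3 to 41.5 in shActb_1 and 59.8 to 63.2 in shActb_2. Of the 4 epithelial markers, 0, 2, 3 and 4 rose and 1, 0, 0 and 0 fell, with summed signals of 164 to 181, 319 to 331 and 182 to 187 in EGFP, Mkl1 and Srf and of 94.5 to 98.0, 197 and 240.0 to 256 in shEGFP, shActb_1 and shActb_2. The part of these cell types in the changes of the 9 genes was not tested.

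The lists of pluripotent cell, oligodendrocyte, blood cell and endothelial markers also held some calls, to be read beside the same shares of all named genes. Of 9 pluripotent cell markers 3, 1, 1 and 1 rose and 1, 2, 1 and 2 fell, with the estrogen-related receptor Esrrb higher by 2.53 (SE 0.12, adjusted p = 1.63e-05) on the arrays labelled Srf. Of 8 oligodendrocyte markers 1, 1, 0 and 1 rose and 0, 0, 0 and 2 fell. Of 5 microglia and blood cell markers 3, 1, 0 and 0 rose and 1, 1, 0 and 1 fell, and of 4 endothelial markers 1 fell with shActb_2 and no other call was made, with Cdh5 and Tek not well above background on any array. The summed signals of these lists were 4.05 to 6.65, 13.9 to 32.6, 8.73 to 15.5 and 5.29 to 9.28 over all arrays. The oligodendrocyte markers summed to 18.4 on an EGFP array and to 32.6 on the other.

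The genes with the most similar changes were found by Euclidean distance over the 4 log2 changes, among 13926 named genes well above background on all 12 arrays. Since the comparisons share controls in pairs, this is a description of likeness on these arrays. For Slc1a3 they were Foxc1 (distance 0.21), Tspan13 (0.30) and B3galt1 (0.35), for Sox2 they were Csn1s2b (0.22), Slc35g2 (0.26) and Inpp5j (0.31), and for Sox9 they were 3300005D01Rik (0.16), Ube2d-ps (0.26) and Map3k6 (0.26). For Fabp7 they were Derl3 (0.27), Sardh (0.30) and Atp1b2 (0.38), and for Prom1 they were Gdf5 (0.20), Rtn1 (0.22) and Ednra (0.26). Foxc1 changed by -0.36, -1.39, -1.27 and -1.23 in the Srf, Mkl1, shActb_1 and shActb_2 comparisons, beside -0.19, -1.37, -1.30 and -1.11 for Slc1a3. None of these neighbours is among the 9 genes.

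**Figure D4:**
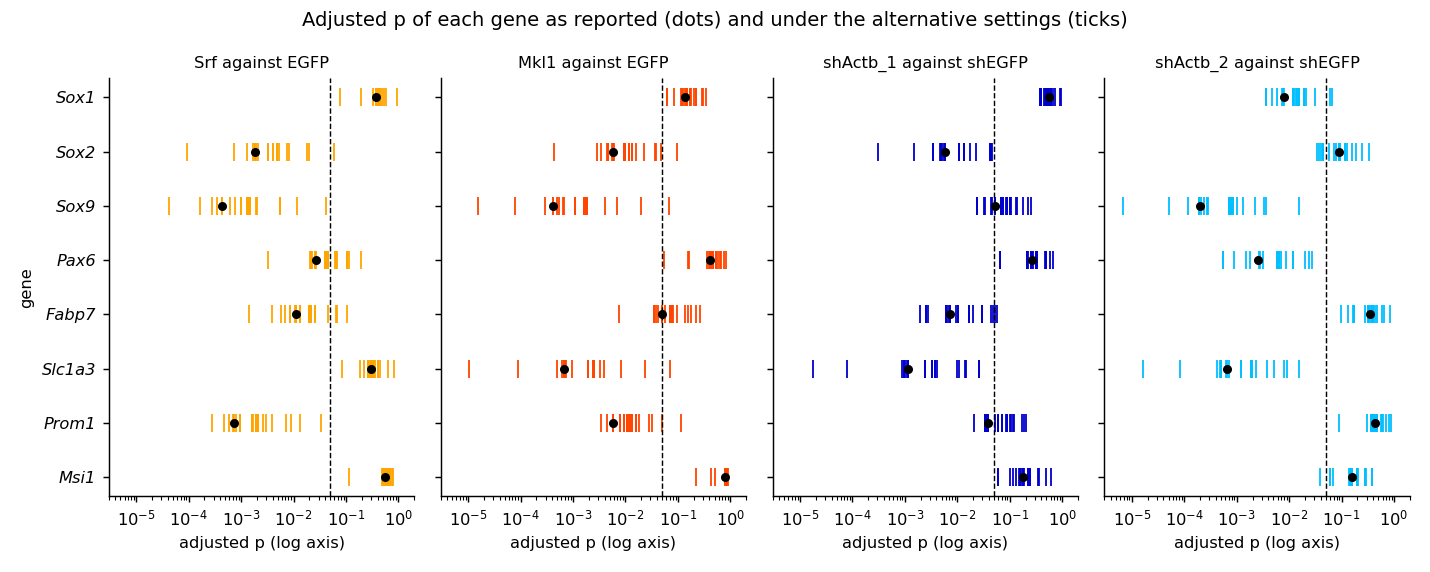
Adjusted p (log axis) of the 8 genes in the 4 comparisons as reported (black dots) and under each alternative fit (coloured ticks); the dashed line is at 0.05. Slc1a3 with either hairpin, Sox2 with shActb_1, and Sox9 with shActb_2 stay left of the line in every fit, while Fabp7 on the Mkl1 arrays and Prom1 with shActb_1 lie on both sides.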

How the data were processed

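RNA of 12 samples was hybridised to single-colour Agilent arrays (62976 features, which fits the array format of the study's methods but not that of the labels). Per the file headers, the authors read the scans in Feature Extraction 11.5.1.1, and it gives each spot a processed signal intensity after background subtraction. The deposited log2 table holds the same arrays after a percentile shift. All of its probes lay within 0.01 of a constant offset from the values used here. The study's methods name percentile shifts and the removal of low signals in GeneSpring, and no test for the arrays.

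Here log2 of the processed signal was taken, control spots and outlier flags were left out, spots of a probe were averaged, and the array's 75th percentile was subtracted. Symbols came from RefSeq through the probes' unversioned accessions, and 50.3% of 55681 probes had 1. The array was designed on another build than this table, so no gene coordinates are given, while the promoter windows carry the build of their own table. All 12 arrays were fitted with limma 3.58.1 (lmFit, eBayes) in R 4.3.3, 1 mean per group, two-sided, with Benjamini-Hochberg adjustment over probes for which 1 or more of the compared groups was well above background on all its arrays. Groups came from the sample titles. The fit was tested on simulated data.

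The 9 genes, the gene lists and the tests were chosen with earlier results of these data known, and no list was tested as a whole. The named genes are all probes of the 9 genes, up to 4 genes of a list that passed with over 2-fold in a comparison, the targeted genes, and the 3 nearest genes of a pattern, with Nfib, Hmga2 and Pdgfrb added after their values were seen. The EGFP, Mkl1 and Srf arrays shared slide 1, those of shEGFP and shActb_1 shared slide 2, and slide 3 carried shActb_2. Replicate numbers were compared through the deviations of arrays with the same number (r = 0.04 to 0.26 over 29249 probes), and with 2 pairs they were not taken as pairs. Alternatives were another background correction (normexp with offset 50, on the median spot signal, since the planned mean was not among the columns), other normalizations, filters, criteria and variance models, the deposited log2 table, fewer arrays, the replicate or slide as a block, and each array left out. Protein sequences were not analysed here.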

Additional observations from a re-analysis of the deposited data

Results flagged for a closer look

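For these genes the effect differed between treatments by a direct test and by over 2-fold. Between the arrays labelled Srf and those labelled Mkl1, both against EGFP, the log2 effects differed by 1.59 for Fabp7 (SE 0.19, adjusted p = 0.000943, limma), by 1.18 for Slc1a3 (SE 0.12, adjusted p = 0.000507) and by 1.51 for Prom1 (SE 0.10, adjusted p = 5.98e-05), higher with Srf on 2 of 2 arrays each. Between the hairpins, both against shEGFP, they differed by 1.02 for Fabp7 (SE 0.19, adjusted p = 0.00673), higher with shActb_2, and by -1.04 for the second Sox1 probe (SE 0.22, adjusted p = 0.0116), lower with shActb_2, while the first, about equally bright, differed by -0.53. The mean hairpin effect minus the effect on the arrays labelled Srf was -1.69 for Fabp7 (SE 0.26, adjusted p = 0.00483), -1.01 for Slc1a3 (SE 0.17, adjusted p = 0.00658) and -1.16 for Prom1 (SE 0.13, adjusted p = 0.00164). With the normexp background correction several of these sizes were under 2-fold, at 0.87 for Fabp7 and 0.96 for Prom1 between Srf and Mkl1, 0.47 for Fabp7 and -0.74 for the second Sox1 probe between the hairpins, and -0.71 for Prom1 between the hairpins and Srf, and without EGFP replicate 2 Slc1a3 was at -0.86 in the last comparison. The Srf probes went against the label of the arrays labelled Srf, and shActb_2 lay on a slide of its own. The cause of these differences was not tested.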

How the results depend on the processing

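Over 27 alternatives, no call of a probe of the 9 genes reversed its direction. Of 1957 values, 1822 kept their side of the threshold, 103 lost and 32 gained a call. Among the 1822, 26 values that had not passed changed sign. With only the arrays of the groups compared, where fewer arrays estimate the spread, the Mkl1 calls fell to 0 higher and 0 lower, and the Srf calls to 2 higher and 0 lower. Arrays of 1 slide alone, chosen after seeing the data, gave 2 higher with Srf. With over 2-fold required beside the adjusted p, as with over 2-fold alone, 0 genes were higher with Srf, 1 was lower with Mkl1, and 1 was higher and 1 lower with shActb_2. The probe of the highest mean unlogged signal, chosen after seeing the data, exchanged the Sox1 probes and gave 2 lower with Srf. The median over a gene's probes gave 2 higher with Srf and 2 lower with Mkl1. The count higher with shActb_1 became 1 (Sox9) with quantile normalization, with a variance trend, with probes above background on every compared array and with the replicate number as a block. With the 75th percentile taken over probes above background on all arrays, the median of all probes tested with shActb_2 moved from -0.02 to -0.15, and 4 genes were lower, with Sox2 at -0.48 and Msi1 at -0.32 added. Without each array in turn, the counts ranged from 2 to 4 higher and stayed at 1 lower for Srf, stayed at 1 higher and ranged from 3 to 4 lower for Mkl1, from 0 to 1 higher and 2 to 4 lower for shActb_1, and stayed at 2 higher and ranged from 1 to 3 lower for shActb_2. The replicate block changed 2 calls, both with shActb_1, Prom1 (adjusted p = 0.0531) and Sox9 (adjusted p = 0.0327). It moved the calls over all probes from 9052 to 9363, 7439 to 7680, 3412 to 3458 and 14591 to 14845 in the Srf, Mkl1, shActb_1 and shActb_2 comparisons. With 2 pairs, these samples share only a number. The normexp correction lowered the changes of dim probes, to -0.23 for Fabp7 with Mkl1. The slide block could not be fitted for shActb_2 and by construction leaves the other comparisons unchanged. Sox3 and the dim probes of Pax6, Msi1 and Prom1 are limited by signal over background.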
